A study of Homo sapiens with 6 samples.

Results

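The luminal lineage transcription factors described here are ESR1, FOXA1, GATA3, TFAP2A, TFAP2C, ELF3, ELF5 and SPDEF, 8 genes chosen by name among the 58051 genes of the table, and all 8 were found. Their RNA was compared between 2 subpopulations of MDA-MB-231, a triple-negative human breast cancer cell line of mesenchymal form. The cells were labelled wild type, stained with FITC-conjugated human recombinant FABP4, a fatty acid carrier protein, and sorted by flow cytometry into FABP4 binding cells (3 libraries) and FABP4 non-binding cells (3 libraries). Both groups come from this single line and both went through the stain and the sort, so neither is an unsorted culture. Total RNA was depleted of ribosomal RNA, randomly primed and sequenced, and the deposited values are TPM, a unit that corrects for gene length and has a fixed total per library. Whether replicate libraries stem from independent cultures or sorting runs is not in the labels, so the spread on which each p-value rests may be technical only.

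In the mammary gland, luminal cells line the duct and alveoli and are surrounded by basal, myoepithelial cells. The oestrogen receptor encoded by ESR1 acts with the pioneer factor FOXA1, which opens chromatin, and with GATA3, which is needed to form and keep luminal cells. The AP-2 factors TFAP2A and TFAP2C bind GC-rich elements near luminal genes, and the epithelial ETS factors ELF3, ELF5 and SPDEF act in secretory and luminal progenitor cells. Keratins 8, 18 and 19 are the intermediate filament proteins of simple and luminal epithelium, and KRT7 is another keratin of simple epithelium.

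TFAP2C and SPDEF were higher in the binding cells. TFAP2C had a mean of 51.9 ± 11.5 TPM in binding cells and 21.1 ± 2.09 TPM in non-binding cells, and SPDEF had a mean of 8.09 ± 3.20 TPM in binding cells and 2.20 ± 1.12 TPM in non-binding cells (SD, n = 3 each). GATA3, FOXA1, ELF3 and TFAP2A did not pass the test, and ESR1 and ELF5 were listed at 0 in all 6 libraries. KRT7, KRT8, KRT18 and KRT19 were all higher in the binding cells. The test was limma on log2(TPM + 1) over 15574 genes, with the Benjamini-Hochberg adjusted p held to 0.05. By it 26.7% of the genes were called, 19.6% as higher in binding cells and 7.12% as lower, so that 73.3% of the calls were higher. That split depended on scaling: 33.7% of the calls were higher when all libraries were shifted to 1 common median, 49.0% with quantile normalization and 84.6% with TPM rescaled without the mitochondrial genome. Against that background, 2 of the 6 tested factors were higher and none lower by limma (none lower at an unadjusted p under 0.05 either). Both were also at least 2-fold higher on the fitted scale. Of all tested genes, 4.62% were both called higher and at least 2-fold higher. With 6 genes, such shares are a description. Over the tested genes the median log2 change stood at 0.36, so a factor with no change lay below the typical gene.

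Promoter sequence is shown for SPDEF, the factor with the largest log2 change, and for FOXA1, which did not pass, together with the first bases of a KRT8 transcript as the luminal keratin with an entry. The stretches come from RefSeq on GRCh38.p14, in which 7 of the 8 factors had an entry. TFAP2C, KRT7, KRT18 and KRT19 had none, so their promoters were not searched. Its starts can differ from the gene positions given below, which come from another annotation. The FOXA1 and KRT8 starts used here lie inside those gene positions and not at their outer ends. The 250 bases before the SPDEF start (chr6:34556330-34556579, minus strand), the 250 bases before the FOXA1 start (chr14:37595250-37595499, minus strand) and the 30 bases from a KRT8 start (chr12:52926440-52926469, minus strand) read 5′ to 3′ as follows, with capitals marking a forkhead element as bound by FOXA factors.
SPDEF: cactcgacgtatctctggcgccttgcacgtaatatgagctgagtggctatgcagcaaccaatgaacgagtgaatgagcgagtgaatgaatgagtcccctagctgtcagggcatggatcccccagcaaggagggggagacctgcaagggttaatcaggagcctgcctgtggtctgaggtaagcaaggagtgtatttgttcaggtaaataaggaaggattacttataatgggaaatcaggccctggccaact
FOXA1: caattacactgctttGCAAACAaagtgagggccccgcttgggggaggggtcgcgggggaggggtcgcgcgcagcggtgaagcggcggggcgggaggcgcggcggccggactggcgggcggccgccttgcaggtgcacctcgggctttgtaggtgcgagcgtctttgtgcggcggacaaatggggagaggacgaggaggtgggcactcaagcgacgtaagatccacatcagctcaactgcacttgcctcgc
KRT8: attcagcaaaTGTTTGCggaatgaatgggg

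The forkhead element was searched as TGTTTAC or TGTTTGC on both strands over 300 bases (250 before and 50 after each start). Other forkhead spellings were not searched, so a lack of matches, as in SPDEF, refers to these spellings only. FOXA1, KRT8 and ELF5 each held 1 match, in FOXA1 and ELF5 as the reverse complement, and 1 of the 6 GATA3 entries held 1. SPDEF, ELF3 and the entries of TFAP2A and ESR1 held none, while 7.17% of 35116 promoter entries held at least 1. An AP-2 element, GCCNNNGGC on both strands, lay in 3 of the 6 entries of GATA3 and in no entry of ESR1, FOXA1, ELF3, ELF5, SPDEF, TFAP2A or KRT8, against 23.2% of all entries. An SPDEF-type ETS element, CCGGAT on both strands, lay in the ELF3 entry and in 1 entry of GATA3, against 7.12% of all entries. A GATA element, spelled AGATAA or TGATAA with A or G as the last base and read on both strands, was found in 1 of the 6 entries of ESR1, with 3 matches, and in no entry of the other factors, against 25% of all entries. The full palindromic oestrogen response element was in none of the entries of the factors and in 0.057% of all entries. These matches describe letters in a window and no binding was measured.

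**Figure D1:**
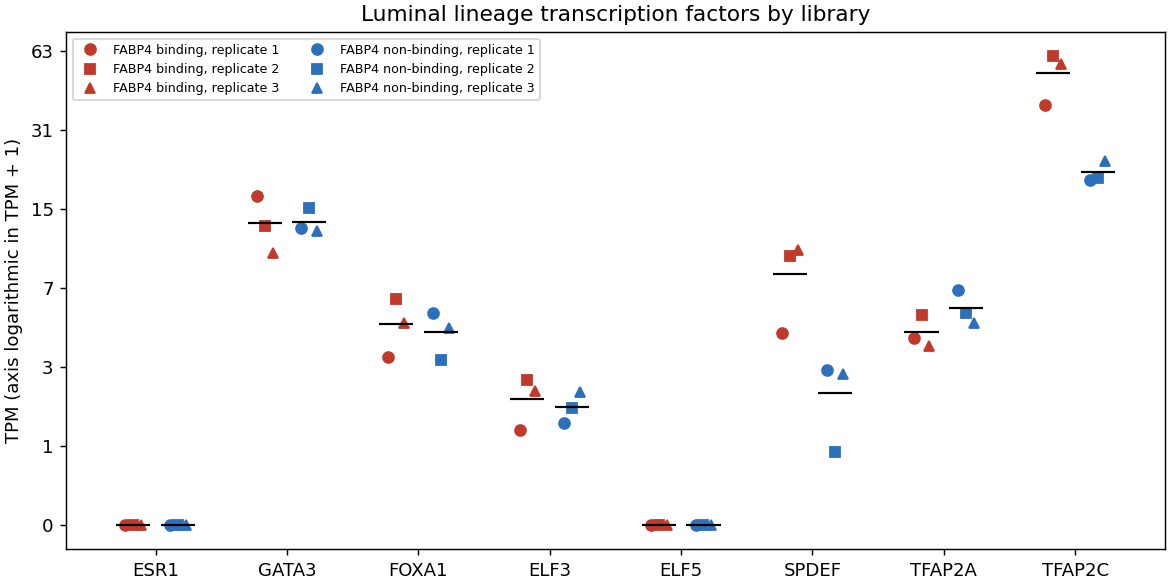
TPM of the 8 factors in each of the 6 libraries on an axis logarithmic in TPM + 1, with FABP4 binding libraries (red) left of FABP4 non-binding libraries (blue) and a black line at each group's mean. TFAP2C and SPDEF have binding libraries that all lie above the non-binding ones, as do 38.6% of tested genes. The points of GATA3, FOXA1, ELF3 and TFAP2A overlap between groups, and ESR1 and ELF5 lie at 0.

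ESR1, the oestrogen receptor alpha gene (ENSG00000091831, chromosome 6, 151656691 to 152129619, plus strand, hg38), was listed at 0 TPM in the 3 binding and in the 3 non-binding libraries. A listed 0 is not read as absence. In all 6 libraries 5 short noncoding RNAs that every cell makes, RN7SK, RN7SL1, RMRP, RPPH1 and TERC, were also at 0. So were 16.7% of 19737 protein-coding genes. The messenger RNAs of TBP, POLR2A and GAPDH were above 0 in every library, with TBP at 17.6 to 23.5 TPM. The zeros of the short RNAs therefore do not tell how a longer transcript such as ESR1 would be recorded. The depth behind a TPM value is unknown, so no detection limit can be given. MDA-MB-231 is known as an ESR1-negative line. The progesterone receptor gene PGR, a classical oestrogen receptor target, was at 0 in 4 of the 6 libraries.

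FOXA1 (ENSG00000129514, chromosome 14, 37589984 to 37596059, minus strand) had 3.36, 6.28 and 4.91 TPM in binding replicates 1, 2 and 3, against 5.42, 3.26 and 4.66 TPM in non-binding replicates 1, 2 and 3. The groups overlapped, with binding replicate 1 nearly as low as non-binding replicate 2, the lowest of all. Its log2 change was 0.09 (SE 0.28, 95% interval -0.55 to 0.73; limma, Benjamini-Hochberg adjusted p = 0.806). That change turned negative under the common median (-0.22) and under quantile normalization (-0.16). The interval spans both directions.

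GATA3, the zinc-finger factor of luminal identity (ENSG00000107485, chromosome 10, 8045378 to 8075203, plus strand), had 16.9, 12.8 and 9.90 TPM in the binding libraries, against 12.5, 15.1 and 12.2 TPM in the non-binding libraries. Both the highest and the lowest of the 6 values were binding libraries. The log2 change was -0.03 (SE 0.22, 95% interval -0.54 to 0.48; limma, Benjamini-Hochberg adjusted p = 0.919). It was 0.07 when TPM were rescaled without the mitochondrial genome and -0.35 with the common median, and neither passed. The upper bound of 0.48 lies under the changes of the 4 luminal keratins.

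TFAP2C, which encodes AP-2 gamma (ENSG00000087510, chromosome 20, 56629302 to 56639283, plus strand), had 38.8, 60.5 and 56.3 TPM in binding replicates 1, 2 and 3, against 19.7, 20.1 and 23.5 TPM in non-binding replicates 1, 2 and 3. The groups did not overlap and the binding libraries were the higher, as for 38.6% of tested genes, and replicate 1 was the lowest of the binding group. The ratio of the means was 2.46. Its log2 change was 1.24 (limma, SE 0.20, 95% interval 0.79 to 1.69, Benjamini-Hochberg adjusted p = 0.013), tested against no change. That change lay 0.88 above the all-gene median, an excess without a p-value of its own, and 372 of the 15574 tested genes rose more. TFAP2C passed with the common median (log2 change 0.92, adjusted p = 0.0365 by limma) and with quantile normalization (0.96, adjusted p = 0.0395 by limma). TFAP2C missed the threshold by little without non-binding replicate 2 (1.21, adjusted p = 0.0504 by limma) and without non-binding replicate 3 (1.31, adjusted p = 0.0535 by limma).

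TFAP2A, which encodes AP-2 alpha (ENSG00000137203, chromosome 6, 10393186 to 10419659, minus strand), had 4.15, 5.35 and 3.84 TPM in the binding libraries, against 6.88, 5.45 and 4.92 TPM in the non-binding libraries. Binding replicate 2 lay between non-binding replicates 2 and 3, so the groups overlapped. The log2 change was -0.31 (SE 0.23, 95% interval -0.83 to 0.21; limma, Benjamini-Hochberg adjusted p = 0.315), negative under all 13 alternatives and past the threshold in none of them (adjusted p = 0.0894 to 0.6 by limma). The interval of TFAP2A ends at 0.21 and that of TFAP2C begins at 0.79. Within a library, where any common scaling cancels, the ratio of TFAP2C to TFAP2A was 9.35, 11.3 and 14.7 in the binding libraries and 2.86, 3.69 and 4.77 in the non-binding libraries.

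SPDEF, the prostate-derived ETS factor of secretory epithelium (ENSG00000124664, chromosome 6, 34537802 to 34556333, minus strand), had 4.41, 9.65 and 10.2 TPM in binding replicates 1, 2 and 3, against 2.92, 0.903 and 2.77 TPM in non-binding replicates 1, 2 and 3. The groups did not overlap, with the binding libraries above, as for 38.6% of tested genes. Binding replicate 1 stood much nearer to the non-binding libraries than the other 2 did, and non-binding replicate 2 was the lowest. The ratio of the means was 3.68. Its log2 change was 1.51 (limma, SE 0.39, 95% interval 0.60 to 2.41, Benjamini-Hochberg adjusted p = 0.0309), tested against no change. That change lay 1.15 above the all-gene median, an excess without a p-value of its own, and 168 tested genes rose more. The direction held under all 13 alternatives, while the call held under 6 of them. It was lost with the common median (1.19, adjusted p = 0.0885 by limma), with quantile normalization (1.25, adjusted p = 0.0764) and without a filter (adjusted p = 0.0774). It was also lost without binding replicate 2 (1.36, adjusted p = 0.0721 by limma), binding replicate 3 (1.32, 0.0762), non-binding replicate 2 (1.17, 0.082) or non-binding replicate 3 (1.66, 0.0656).

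**Figure D2:**
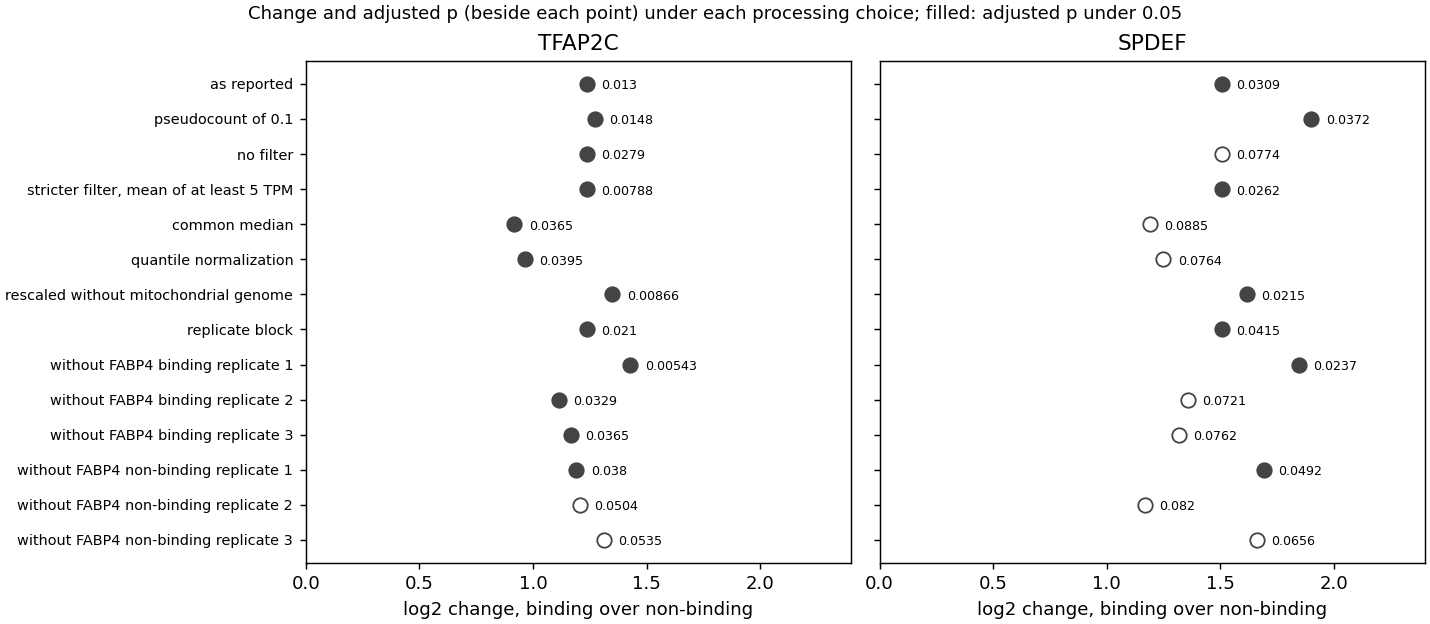
Log2 change of TFAP2C (left) and SPDEF (right), binding over non-binding, as reported and under 13 processing choices, with the limma adjusted p beside each point and filled points where it is under 0.05. Every point lies above 0 for both genes, between 0.92 and 1.43 for TFAP2C and between 1.17 and 1.90 for SPDEF, with 2 open points for TFAP2C and 7 for SPDEF.

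ELF3, an epithelial ETS factor (ENSG00000163435, chromosome 1, 202007945 to 202017188, plus strand), had 1.31, 2.57 and 2.24 TPM in the binding libraries, against 1.44, 1.80 and 2.21 TPM in the non-binding libraries. The groups overlapped, with the lowest and the highest value both in the binding group. The log2 change was 0.09 (SE 0.30, 95% interval -0.59 to 0.78; limma, Benjamini-Hochberg adjusted p = 0.82), and it turned negative under the common median (-0.225) and under quantile normalization (-0.08). ELF5, the ETS factor of luminal progenitors and alveolar cells (ENSG00000135374, chromosome 11, 34478793 to 34513805, minus strand), was listed at 0 TPM in the 3 binding and the 3 non-binding libraries and was not tested.

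Several of these genes overlap others, and the labels do not state whether reads were counted by strand. Antisense partners were low. GATA3-AS1 reached at most 1.49 TPM, TFAP2A-AS1 at most 1.04 TPM and ELF3-AS1 at most 2.81 TPM, in binding replicate 2. That last value exceeds the 2.57 TPM of ELF3 in the same library, and without strand the reads of these partners cannot be told apart. KRT7-AS reached at most 3.22 TPM, and SYNE1, on the strand opposite ESR1, at most 2.59 TPM. KRT8 and KRT18 overlap each other on opposite strands. KRT7 overlaps KRT86, which reached at most 42.7 TPM and lies on the same strand, so strand would not separate their reads.

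Ranked by level in binding libraries, the order was TFAP2C, GATA3, SPDEF, FOXA1, TFAP2A and ELF3. TFAP2C stood clear of GATA3, and TFAP2A of ELF3, while GATA3, SPDEF and FOXA1 each overlapped the next in range. In non-binding libraries the order was TFAP2C, GATA3, TFAP2A, FOXA1, SPDEF and ELF3, and overlap was confined to TFAP2A with FOXA1 and SPDEF with ELF3. SPDEF thus ranked above FOXA1 in binding cells and below it in non-binding cells. Within libraries, the ratio of SPDEF to FOXA1 was 1.31, 1.54 and 2.08 in the binding libraries and 0.539, 0.277 and 0.594 in the non-binding libraries, without overlap. TFAP2C made up 56.3%, 62.2% and 64.4% of the summed TPM of the 8 genes in the binding libraries, and 40.3%, 43.1% and 46.8% in the non-binding libraries.

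The luminal keratins were set beside the factors. KRT8 (chromosome 12, 52897187 to 52949954) had 182, 183 and 177 TPM in binding libraries, against 103, 78.5 and 85.1 TPM in non-binding libraries. KRT18 had 347, 265 and 280 TPM in binding libraries, against 149, 143 and 151 TPM in non-binding libraries. KRT19 had 157, 141 and 150 TPM in binding libraries, against 78.0, 76.6 and 77.8 TPM in non-binding libraries. In each of these 3 keratins the groups stood well apart, with ratios of the means of 2.04, 2.01 and 1.93 in that order.

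KRT7 had 765, 454 and 445 TPM in the binding libraries, against 238, 243 and 215 TPM in the non-binding libraries, with binding replicate 1 far above the rest. The log2 changes were 1.21 for KRT7, 1.03 for KRT8, 0.99 for KRT18 and 0.94 for KRT19 (SE 0.21, 0.14, 0.14 and 0.12; limma, Benjamini-Hochberg adjusted p = 0.0143, 0.00996, 0.0102 and 0.00898). All 4 passed under the common median and under quantile normalization. Leaving out non-binding replicate 3 ended all 4 calls (adjusted p = 0.0517 to 0.0564 by limma). Leaving out non-binding replicate 2 ended only the call of KRT7 (adjusted p = 0.0542 by limma).

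**Figure D3:**
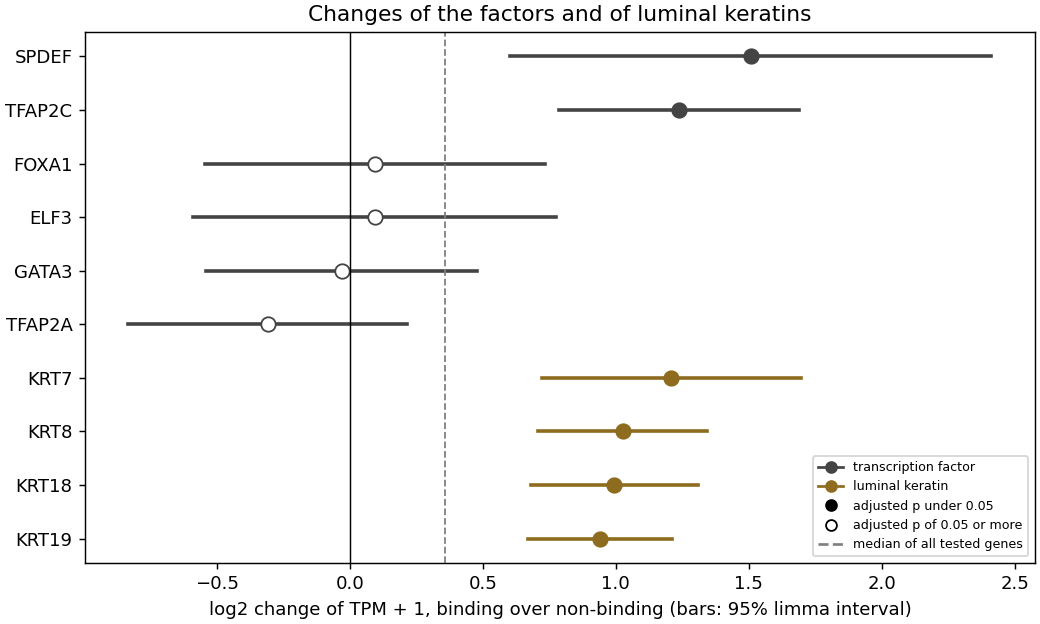
Log2 change of TPM + 1, binding over non-binding, for the 6 tested factors (grey) and the 4 luminal keratins (brown), with 95% limma intervals, filled where the adjusted p is under 0.05 and a dashed line at the median of all tested genes, 0.36. SPDEF and TFAP2C lie with the keratins, while the intervals of FOXA1, ELF3, GATA3 and TFAP2A include 0.

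Within libraries, the ratio of TFAP2C to KRT8 was 0.213, 0.330 and 0.317 in the binding libraries and 0.191, 0.257 and 0.276 in the non-binding libraries, so that it overlapped between groups, and so did its ratios to KRT18 and to KRT19. The ratio of SPDEF to KRT8 overlapped as well. For GATA3 and FOXA1, neither of which passed the test, the ratios to KRT8 were lower in the binding libraries, where KRT8 itself was higher. The ratio of GATA3 to KRT8 was 0.0928, 0.0700 and 0.0558 in the binding libraries, below the 0.121, 0.193 and 0.144 of the non-binding libraries. The ratio of FOXA1 to KRT8 was 0.0185, 0.0343 and 0.0277 in the binding libraries, below the 0.0525, 0.0415 and 0.0547 of the non-binding libraries. These ratios are unaffected by how a library is scaled, and no test was run on them.

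Binding replicate 1 differed in its pattern from the other binding libraries. It had the lowest TFAP2C and SPDEF of its group, with 38.8 and 4.41 TPM, and the highest KRT7 and KRT18, with 765 and 347 TPM. Without it, the log2 change was larger for TFAP2C (1.43, adjusted p = 0.00543 by limma) and for SPDEF (1.85, adjusted p = 0.0237 by limma). The change was smaller for KRT7 (0.95) and KRT18 (0.88), while their adjusted p by limma was 0.00543 each, against 0.0143 and 0.0102 with all libraries.

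**Figure D4:**
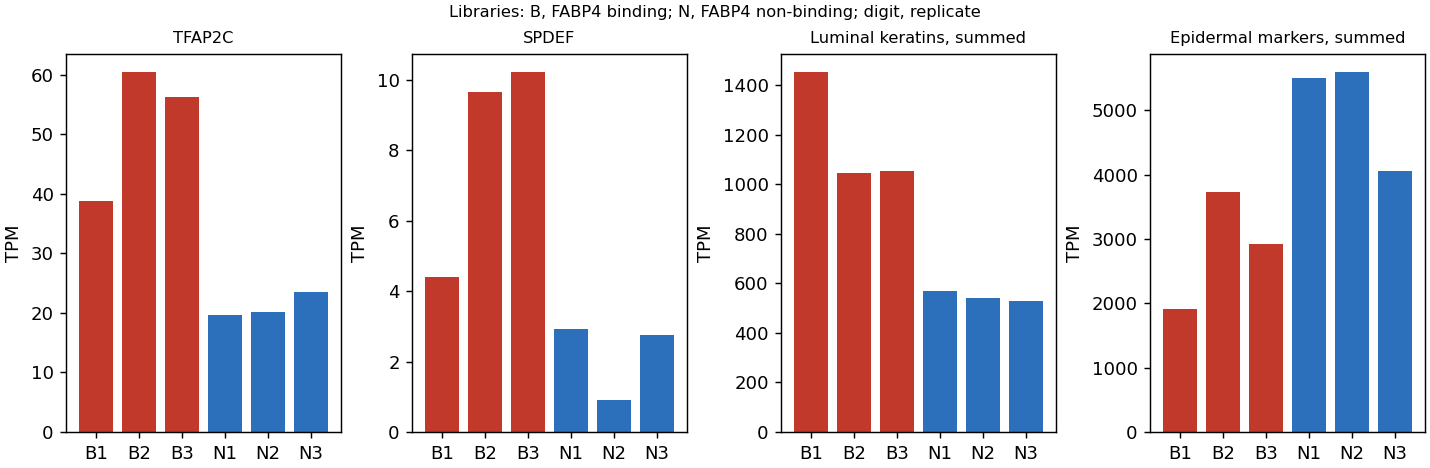
TPM of TFAP2C, SPDEF, the 4 luminal keratins summed and 25 epidermal keratinocyte markers summed, as bars from 0 in each FABP4 binding library (B, red) and each FABP4 non-binding library (N, blue). Binding replicate 1 is lowest of the binding group for TFAP2C, SPDEF and the epidermal sum and highest for the keratin sum, 1452 TPM.

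Markers of other cells were checked because AP-2 factors, GATA3 and ELF3 are also made in epidermis. All 25 epidermal keratinocyte markers were tested, and 11 were lower and none higher in the binding cells by limma (16 lower and none higher at an unadjusted p under 0.05). Over all tested genes the shares called were 7.12% lower and 19.6% higher. Their summed level was 1911 to 3722 TPM in binding and 4059 to 5592 TPM in non-binding libraries, and none of them was at 0 in all libraries. KRT10, a keratin of differentiating epidermis, had a mean of 553 ± 123 TPM in binding cells and 1189 ± 194 TPM in non-binding cells (SD, n = 3 each). Such levels stand beside the line's own markers VIM, CAV1, EGFR, CD44, AXL and MSN, which summed to 2157 to 2312 TPM in binding and 1837 to 1906 TPM in non-binding libraries. Of these 6 line markers, 4 were higher by limma (EGFR, AXL, CAV1 and CD44), as were 19.6% of all tested genes. None was lower (1 at an unadjusted p under 0.05). Their median log2 change was 0.77, against 0.36 for all tested genes, while VIM and MSN did not pass (0.16 and -0.34). With the common median 3 were higher and 1 lower, and without non-binding replicate 2 or 3 none passed. The 4 called markers moved in the direction of TFAP2C, SPDEF and the luminal keratins. The part of this in the result was not tested. The rise of TFAP2C and SPDEF ran opposite to the epidermal markers between the groups. Within the binding group, replicate 1 was lowest for TFAP2C (38.8 TPM), SPDEF (4.41 TPM) and the epidermal sum (1911 TPM). The part of epidermal RNA in the levels of the factors was not tested. In bulk RNA, fewer cells of a type and less RNA per cell cannot be told apart. Leukocyte, fibroblast, endothelial and adipocyte markers summed, list by list, to at most 60.7 TPM in any library, and none of the 11 of them that could be tested passed (limma; 1 fibroblast marker was lower at an unadjusted p under 0.05).

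The counts of calls in the gene lists that follow stand beside 19.6% of all tested genes called higher and 7.12% called lower. Calls in these lists were sensitive to 1 library. Without non-binding replicate 3, IGFBP4 was the only gene of these lists to pass, and no epidermal marker passed. Without non-binding replicate 2, FOXA2, IGFBP4, the basal keratin KRT5 and 1 epidermal marker passed. Paralogues of the factors were described from a list of 18 genes, of which 11 were tested, 2 were higher and none lower by limma (3 higher and 1 lower at an unadjusted p under 0.05), with a median log2 change of 0.12 against 0.36 for all genes. FOXA2, another pioneer factor of the FOXA family known from endoderm, had 52.2, 34.8 and 39.3 TPM in binding libraries, against 14.4, 19.6 and 17.3 TPM in non-binding libraries. FOXA2 lay above FOXA1 in every library, and its log2 change was 1.24 (SE 0.20; limma, Benjamini-Hochberg adjusted p = 0.0131). That call held under 12 of 13 alternatives and was lost without non-binding replicate 3 (adjusted p = 0.0542 by limma). ELF4, an ETS factor best known from lymphoid cells, had a mean of 30.9 ± 4.75 TPM in binding cells and 17.9 ± 3.59 TPM in non-binding cells (SD, n = 3 each; log2 change 0.76, limma, Benjamini-Hochberg adjusted p = 0.0311), a call held under 5 of 13 alternatives and lost, among others, under the common median and quantile normalization.

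Among 17 other luminal or epithelial transcription factors, 12 were tested, 1 was higher, 2 were lower and 9 did not pass by limma. At an unadjusted p under 0.05, 1 was higher and 4 were lower. Their median log2 change was -0.35, against 0.36 for all tested genes. With the common median none was higher and 3 were lower, and with quantile normalization 1 was higher and 2 were lower. XBP1, a factor of the secretory pathway and a marker of luminal tumours, had a mean of 186 ± 41.3 TPM in binding cells and 113 ± 13.8 TPM in non-binding cells (SD, n = 3 each; log2 change 0.71, limma, Benjamini-Hochberg adjusted p = 0.0288). XBP1 passed with quantile normalization but not with the common median. GRHL3, a grainyhead factor of the epidermal barrier, had 3.90, 4.69 and 5.26 TPM in binding libraries, against 9.74, 9.21 and 9.63 TPM in non-binding libraries (log2 change -0.91, SE 0.19; limma, Benjamini-Hochberg adjusted p = 0.0202). Its groups did not overlap, with binding below, as for 13.6% of tested genes. The GRHL3 call held under 10 of 13 alternatives and was lost without non-binding replicate 1, 2 or 3. CBFB, the partner of RUNX factors, fell by 0.47 on the log2 scale (adjusted p = 0.0471 by limma), a call held under 4 of 13 alternatives.

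Of 19 cofactors and partners, 17 were tested, none was higher and 2 were lower by limma (1 higher and 2 lower at an unadjusted p under 0.05), with a median log2 change of -0.08. LDB1, an adaptor that links LIM-domain and GATA factor complexes, had a mean of 395 ± 39.5 TPM in binding cells and 639 ± 62.7 TPM in non-binding cells (SD, n = 3 each; log2 change -0.69, limma, Benjamini-Hochberg adjusted p = 0.0163). KCTD15, which inhibits AP-2 factors, had a mean of 2.36 ± 0.363 TPM in binding cells and 4.63 ± 0.616 TPM in non-binding cells (SD, n = 3 each; log2 change -0.75, limma, Benjamini-Hochberg adjusted p = 0.0495). The KCTD15 call held under 3 of 12 alternatives, and leaving out any single library ended it. NCOA3, a coactivator of the oestrogen receptor, had a mean of 11.5 ± 2.94 TPM in binding cells and 6.84 ± 0.809 TPM in non-binding cells and did not pass (adjusted p = 0.0598 by limma).

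Genes known as targets of the oestrogen receptor, FOXA1, GATA3 or AP-2 numbered 21, of which 15 were tested, 7 were higher and none lower by limma (8 higher and 1 lower at an unadjusted p under 0.05). Their median log2 change was 0.63, against 0.36 for all tested genes. IGFBP4, a binding protein of insulin-like growth factors, had 1791, 1391 and 1384 TPM in binding libraries, against 608, 654 and 540 TPM in non-binding libraries, and its call held under all 13 alternatives (log2 change 1.33, SE 0.15; limma, Benjamini-Hochberg adjusted p = 0.00624). TFF3, a secreted trefoil peptide, had 37.4, 29.1 and 38.4 TPM in binding libraries, against 17.8, 12.6 and 10.6 TPM in non-binding libraries (log2 change 1.32, SE 0.22; limma, Benjamini-Hochberg adjusted p = 0.0136). SLC39A6, a zinc transporter, had a mean of 34.7 ± 3.18 TPM in binding cells and 19.0 ± 0.281 TPM in non-binding cells (SD, n = 3 each), and MLPH, an adaptor of vesicle transport, had a mean of 13.0 ± 1.03 TPM in binding cells and 6.54 ± 1.52 TPM in non-binding cells (SD, n = 3 each). The calls of TFF3 and SLC39A6 held under 11 of 13 alternatives, and that of MLPH under 8 of 13, being lost under the common median and quantile normalization among others. The other 3 genes past the threshold were CCND1, KDM4B and TFF1, whose calls held under 6 of 13, 3 of 13 and 3 of 12 alternatives. With the common median, 3 targets were higher and 2 lower. With quantile normalization, 3 were higher and 1 lower. IGFBP4 and TFF3 rose while ESR1 was listed at 0 in all 6 libraries, and which factor acts on these genes was not measured.

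Luminal surface markers moved in both directions. Of 12 genes, 9 were tested, 1 was higher, 1 was lower and 7 did not pass, with a median log2 change of -0.02. CLDN3, a tight junction claudin, had 6.62, 6.08 and 4.52 TPM in binding libraries, against 2.51, 1.36 and 3.46 TPM in non-binding libraries (log2 change 1.00, SE 0.30; limma, Benjamini-Hochberg adjusted p = 0.0425). The E-cadherin gene CDH1 had 2.89, 4.15 and 3.26 TPM in binding libraries, against 6.21, 6.02 and 7.29 TPM in non-binding libraries (log2 change -0.77, SE 0.22; limma, Benjamini-Hochberg adjusted p = 0.0387). Leaving out any single library ended the call of CLDN3 and that of CDH1. CDH1 is also made in epidermis, and it moved with the epidermal markers.

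**Figure D5:**
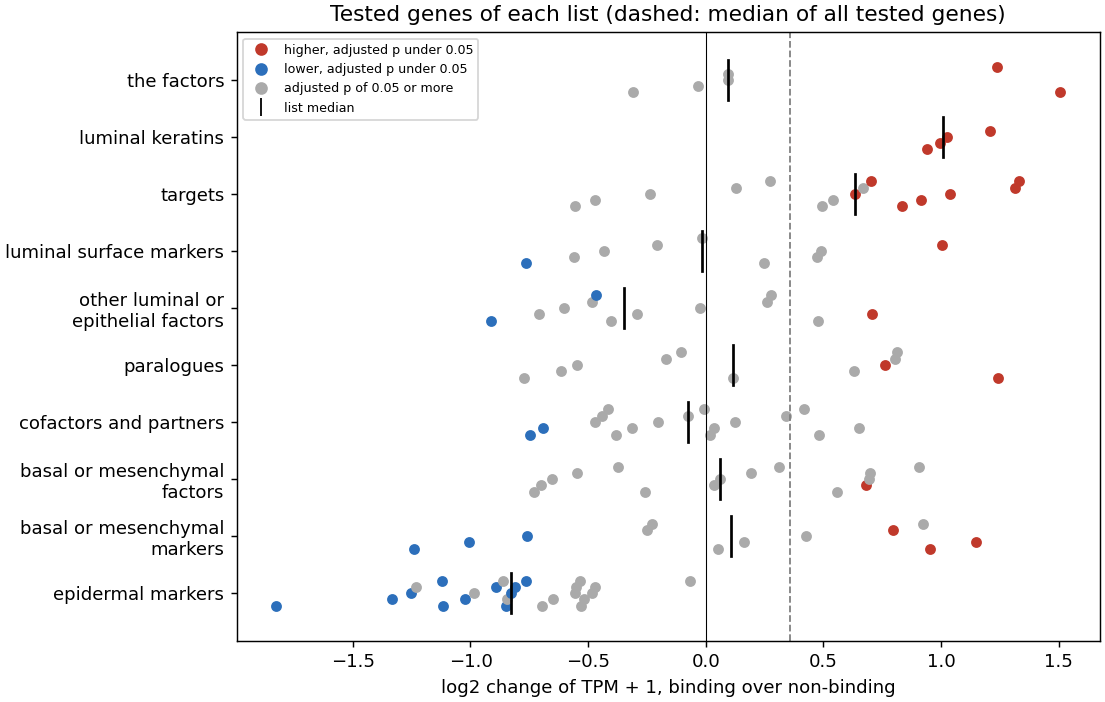
Log2 change of TPM + 1, binding over non-binding, for each tested gene of 10 lists, red where higher and blue where lower with an adjusted p under 0.05, with a black tick at each list's median and a dashed line at the median of all tested genes. Red points are found in every list but the cofactors and the epidermal markers, all 4 keratins are red, and the epidermal markers lie below 0 with a median of -0.83.

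Profiles most like those of TFAP2C and SPDEF over the 6 libraries were sought among 12049 protein-coding genes by the root-mean-square distance between centred log2(TPM + 1) values. CSF1, a macrophage growth factor, was nearest to TFAP2C (distance 0.09), with 17.5, 24.4 and 25.4 TPM in binding libraries, against 7.37, 7.66 and 8.80 TPM in non-binding libraries, followed by the zinc-finger gene ZSCAN22 (0.15). CYP1B1, a cytochrome P450 that oxidizes oestrogens, was nearest to SPDEF (0.07), with 95, 194 and 215 TPM in binding libraries, against 74.8, 38.7 and 69.0 TPM in non-binding libraries, followed by the interferon regulator IRF1 (0.29). CYP1B1 shared the low binding replicate 1 and the low non-binding replicate 2 of SPDEF. No test was made of this likeness.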

How the data were processed

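RNA of 3 FABP4 binding and 3 FABP4 non-binding libraries was measured. The deposited values are TPM made by the authors, each column summing to 1000000, as the values show. Per the submitters' processing notes the genome build was hg38. The sources used here name no aligner, quantifier or annotation. Depth cannot be had from TPM, so no interval or floor from counts was computed, and values are relative within a library. Between 15300 and 15945 genes per library reached 1 TPM. The 15574 genes that reached 1 TPM in 3 or more libraries were tested with limma 3.58.1 (R 4.3.3, intensity trend, no covariate) on log2(TPM + 1), which understates changes of low genes, with Benjamini-Hochberg adjustment over all tested genes at 0.05. The script was tested on simulated data.

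Gene positions came from GENCODE release 29 (99.0% of identifiers matched), which may not be the authors' annotation. Alternatives were a pseudocount of 0.1, no filter, a mean of at least 5 TPM, a common median, quantile normalization, rescaling without the mitochondrial genome, the replicate number as a block, and leaving out each library. Named genes were all factors and luminal keratins, up to 4 called genes with the smallest p per gene list (each of these had at least 1 call), and the 2 nearest profiles of each factor with a log2 change of at least 0.5 either way. The factors and lists were chosen with earlier results of these data known. Other names were chosen after their values were seen, among them NCOA3, PGR, SOX10, CCND1, KDM4B and TFF1.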

Additional observations from a re-analysis of the deposited data

How the results depend on the processing

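Without a filter 1873 genes were called, with quantile normalization 2443, against 4156 as reported. Leaving out 1 library gave 2863, 2724 and 2193 calls without binding replicates 1, 2 and 3, and 1938, 360 and 64 without non-binding replicates 1, 2 and 3. The all-gene median change of 0.36 became 0.04 (common median) or 0.11 (quantile normalization). Called factors numbered 1 without a filter, 1 under the common median, 1 under quantile normalization, and 0 to 2 without each library. Called keratins numbered 0 to 4 without each library. No call of a factor or keratin reversed.

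Of the factors that did not pass, GATA3 turned to 0.074 with rescaling without the mitochondrial genome, FOXA1 to -0.224 (common median) and -0.162 (quantile normalization), and ELF3 to -0.225 and -0.084 in the same order. Without each library GATA3 ranged from -0.214 to 0.145, FOXA1 from -0.079 to 0.29 and ELF3 from -0.034 to 0.279. The causes were not tested. With the stricter filter FOXA1 and ELF3 were not tested.

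The replicate block gave 4306 calls and changed no call of a factor or luminal keratin. Same-numbered libraries deviated with correlations of -0.017 to 0.035, and binding replicate 2 correlated most with non-binding replicate 3 (0.062). Such deviations from group means cannot show whether same-numbered libraries share a culture or sort, which the labels do not say. Depth is unknown, so the counting error of the low factors could not be given.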

Other observations

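Basal and mesenchymal genes were described for comparison, beside 19.6% of all tested genes called higher and 7.12% called lower. Of 17 basal or mesenchymal transcription factors, 15 were tested, 1 was higher and none lower by limma (4 higher and 2 lower at an unadjusted p under 0.05), with a median log2 change of 0.06. SOX9, a factor of progenitor and basal-like cells, had 31.3, 40.4 and 36.2 TPM in binding libraries, against 25.4, 19.5 and 21.3 TPM in non-binding libraries (log2 change 0.68, SE 0.17; limma, Benjamini-Hochberg adjusted p = 0.0277). That call did not hold under quantile normalization or the common median. SOX10, a neural crest and basal-like factor, was listed at 0 in all 6 libraries.

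Of 13 basal or mesenchymal markers, 12 were tested, 3 were higher, 3 lower and 6 did not pass. KRT5, a keratin of basal epithelium and epidermis, had a mean of 139 ± 20.3 TPM in binding cells and 332 ± 73.3 TPM in non-binding cells, and KRT14, its partner, 388 ± 68.6 TPM in binding cells and 781 ± 143 TPM in non-binding cells (SD, n = 3 each). Both were lower, with log2 changes of -1.24 and -1.01 (limma, Benjamini-Hochberg adjusted p = 0.012 and 0.0145). ITGA6, an integrin chain of basal cells, rose by 0.79 and EGFR, the epidermal growth factor receptor, by 1.15 on the log2 scale (limma, Benjamini-Hochberg adjusted p = 0.0167 and 0.0203). In EGFR the binding libraries had 113, 57.3 and 67.5 TPM, against 30.6, 37.6 and 33.3 TPM in the non-binding libraries. Without non-binding replicate 3 none of these basal or mesenchymal genes passed. The basal keratins moved opposite to KRT8, KRT18 and KRT19, and together with the epidermal markers, whose part in this was not tested.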
